A study of Mus musculus with 12 samples.

Results

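This comparison set 3 calvarial osteoblast libraries labelled Bcl3-/- against 3 WT libraries, all taken 1 day after osteogenic induction, and covered every gene with enough reads to be tested. The 6 libraries were chosen by their labels from the 12 of the series, and 16318 of 49585 counted genes were tested. Both groups came from neonatal C57BL/6J mouse pups at P3 to P5. They differed in genotype, WT or Bcl3-/-, and by the labels shared the rest: 1 to 3 calvariae for each replicate (3 by the published methods), release of the cells with collagenase, expansion to confluence, and 1 day in 50 µg/mL ascorbic acid and 2 mM β-glycerophosphate. The other 6 libraries were taken after 3 days and carry the same 6 culture codes in the labels. Here they entered the estimate of the spread and a side-by-side reading of named genes. PolyA RNA was sequenced from SMART-seq v4 libraries, a kit that does not keep the strand, and reads were counted per gene, so reads of overlapping or antisense genes cannot be told apart. The extracellular matrix, interferon, Wnt and BMP genes are left aside, except where they rank among the largest changes.

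BCL3 is an atypical member of the inhibitor of NF-κB family. It binds homodimers of the p50 and p52 subunits in the nucleus and can raise or lower the transcription of the genes they occupy. Calvarial osteoblasts are mesenchymal cells of the skull vault, and after induction they leave the cell cycle by stages, lay down collagen and later mineralize it. The question of the comparison is which genes differ between the genotypes at the start of this course.

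Bcl3, the targeted gene (ENSMUSG00000053175, chr7:19808462-19822770), was at 18.0, 21.8 and 17.8 in WT and at 17.5, 19.7 and 19.2 CPM in those labelled Bcl3-/-. These are TMM-scaled CPM, and the order within each group is replicate 1, 2 and 3, as it is for all values below. The groups overlapped, and the difference did not pass the test (log2 fold change -0.03, SE 0.12, edgeR adjusted p = 0.887). On day 3, in libraries with the same culture codes, Bcl3 was lower in those labelled Bcl3-/- and passed the test (log2 fold change -0.62, SE 0.12, edgeR adjusted p = 0.00863), and the difference between the days did not (edgeR adjusted p = 0.15). The counts do not show which part of the transcript the reads cover. The groups are therefore named as libraries labelled Bcl3-/-, and every direction below rests on those labels.

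The 6 libraries held between 21010081 and 41953891 gene counts. Of 14 osteoblast markers, all measured, 5 were higher and 1 was lower than in WT, and their summed level ran from 38339 to 55417 CPM in WT and from 65443 to 68673 CPM in those labelled Bcl3-/-. Without WT replicates 1, 2 and 3 and then Bcl3-/- replicates 1, 2 and 3, in that order, 4, 3, 7, 3, 3 and 3 of them were higher. The counts without 1 library below keep that order. Col1a1 alone made up most of the summed level, at 22628, 29643 and 33272 in WT and at 38524, 39741 and 40382 CPM in those labelled Bcl3-/-. The sum therefore says little of the other markers, and 8 of the 14 were not called. Alpl, the alkaline phosphatase of mineralizing cells, was at 39.5, 48.7 and 46.8 in WT and at 75.6, 125 and 115 CPM in those labelled Bcl3-/-. Sp7, the transcription factor osterix, was at 65.2, 70.6 and 43.4 in WT and at 30.3, 28.4 and 36.2 CPM in those labelled Bcl3-/-. Among markers of other cells, 0 of 16 for macrophages were called by edgeR, with 1 at an unadjusted p under 0.05 and 1 called by DESeq2. Their summed level ran from 367 to 581 CPM in WT and from 428 to 470.3 CPM in the other group. Of 12 smooth muscle markers 5 were lower, with sums from 3624 to 4010 CPM in WT and from 3094 to 3293 CPM in those labelled Bcl3-/-. Without 1 library 3, 3, 5, 3, 3 and 2 of these were lower. Of 9 tested chondrocyte markers 1, Sox9, was higher (2, 0, 1, 1, 0 and 1 without 1 library). Col2a1, the cartilage collagen, was at 2309.9, 1749 and 638 in WT and at 616, 891 and 746 CPM in those labelled Bcl3-/-, with WT replicates 1 and 2 apart from the rest. Of 10 tested skeletal muscle markers 3 were higher and 1 lower, with sums from 18.96 to 24.95 CPM in WT and from 21.8 to 41.7 CPM in the other group. Hemoglobin and red cell genes were too low to be tested, and so were the keratins searched and the fat cell genes Adipoq, Plin1, Cidec and Lep. The part of other cells in the differences below was not tested. In bulk RNA, fewer cells of a type and less RNA per cell cannot be told apart.

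A total of 2494 genes (15.3% of those tested) passed an edgeR adjusted p under 0.05. Of these, 1473 (9.03%) were higher and 1021 (6.26%) lower than in WT. The rises were larger than the falls: the median size of the log2 fold change was 0.77 among higher genes and 0.44 among lower genes, and 557 higher genes (3.41%) but 165 lower genes (1.01%) changed by more than 1 on the log2 scale. These counts were 353 and 115 without WT replicate 2 and 393 and 90 without WT replicate 1. Lower genes lay at higher levels, with a median of 5.67 log2 CPM against 3.92 for higher genes. Among genes over 6 log2 CPM, 8.43% were higher and 12.8% lower, and among genes under 0 log2 CPM, 5.05% were higher and 1.31% lower. Together the higher genes took up 11.8% of the CPM in WT and 17.9% in the other group, while the lower genes went from 13.5% to 9.87%. Of protein-coding genes 17.2% were called, against 7.77% of lincRNAs, 4.08% of antisense RNAs and 2.33% of processed pseudogenes.

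WT replicate 3 lay between the other WT libraries and the libraries labelled Bcl3-/-. On the first principal component of the 6 libraries, which held 57.0% of the variance, WT scored -49.1, -37.2 and -11.2, and those labelled Bcl3-/- scored 27.1, 36.1 and 34.3. WT replicate 3 was the WT library nearest to the other group in 81.3% of the 1473 higher genes and in 77.0% of the 1021 lower genes. The number of calls moved with the libraries used. Without 1 library, 828, 734, 1738, 1033, 920 and 960 genes were higher and 453, 566, 1178, 584, 472 and 596 were lower. A call that held in all 6 of these fits is called a retained call, and there were 675 retained rises (4.14%) and 376 retained falls (2.3%). The 2 day 1 groups did not overlap in 3158 genes on the higher side (19.4%) and in 3088 genes on the lower side (18.9%), and did not overlap in 99.7% of the higher and 99.3% of the lower calls, nor in any gene named below as changed.

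**Figure D1:**
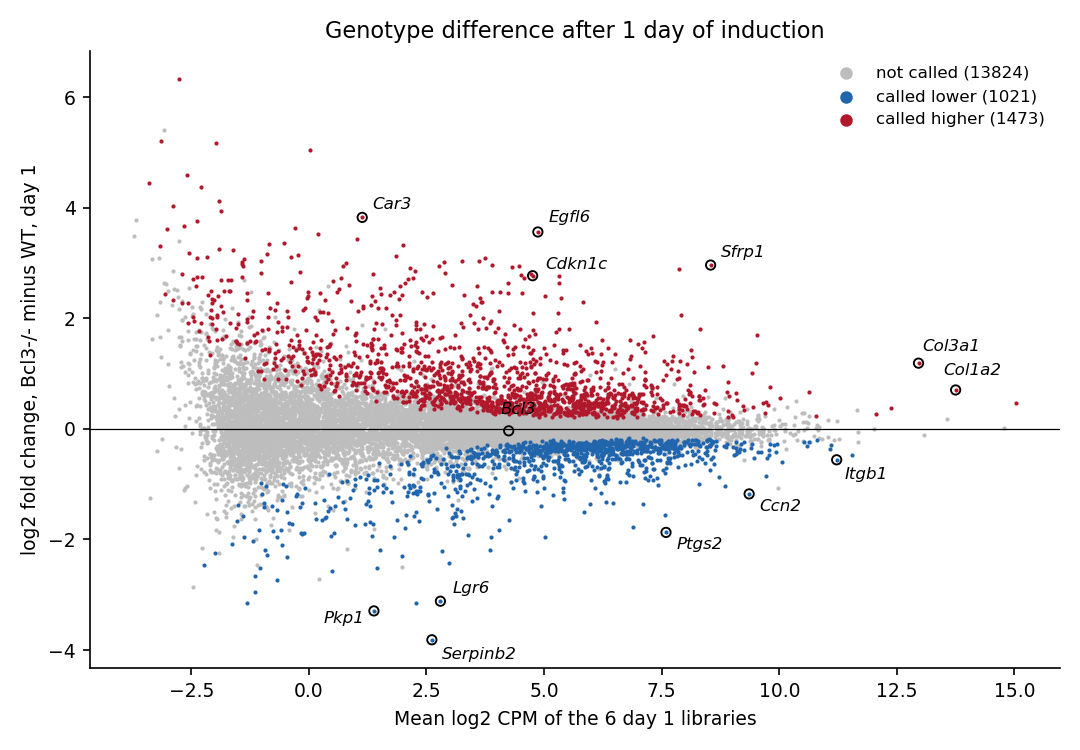
Mean log2 CPM over the 6 day 1 libraries (horizontal axis) against the log2 fold change of libraries labelled Bcl3-/- over WT (vertical axis), with 1 point for each of 16318 genes. The 1473 higher genes are red, the 1021 lower genes blue and the other 13824 grey; the red points reach farther from 0 than the blue ones, and the blue ones lie more to the right.

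Among retained calls at 2 CPM or more on average, Car3, a carbonic anhydrase abundant in muscle and fat, rose most (ENSMUSG00000027559, chr3:14863512-14872523). It was at 0.452, 0.637 and 0.639 in WT and at 12.4, 9.00 and 3.85 CPM in those labelled Bcl3-/-, a 14.2-fold rise (log2 fold change 3.83, SE 0.51, edgeR adjusted p = 0.00105). Bcl3-/- replicate 3 was the lowest of its group and still lay above every WT library. Egfl6, a secreted protein with EGF repeats that binds integrins (ENSMUSG00000000402, chrX:166523007-166585720), was at 5.65, 4.67 and 17.3 in WT and at 103, 122 and 104 CPM in those labelled Bcl3-/- (log2 fold change 3.56, SE 0.45, edgeR adjusted p = 0.000853). The 3 libraries labelled Bcl3-/- were close together, and WT replicate 3 stood over the other WT libraries. Steap4, a metalloreductase that handles iron and copper, rose 8.74-fold from 0.859, 0.979 and 1.78 in WT against 11.5, 10.6 and 10.4 CPM (log2 fold change 3.13, SE 0.32, edgeR adjusted p = 0.000298). Scara5, a receptor for ferritin, rose from 2.94, 1.98 and 9.05 in WT against 40.9, 39.3 and 36.5 CPM (log2 fold change 3.04, SE 0.44, edgeR adjusted p = 0.00145), again with WT replicate 3 the nearest. Both genes rose more than 8-fold, but they were named for the size of their rise, and genes of metal handling were not examined as a list. Lgr5, a receptor for R-spondins known as a stem cell marker of the gut, was at 2.85, 3.05 and 11.8 in WT and at 44.3, 53.7 and 42.1 CPM in those labelled Bcl3-/- (log2 fold change 2.96, SE 0.44, edgeR adjusted p = 0.00157). Its relative Lgr6, which binds the same ligands, went the other way, at 29.0, 25.9 and 9.64 in WT and at 2.83, 1.87 and 2.67 CPM in those labelled Bcl3-/- (log2 fold change -3.12, SE 0.38, edgeR adjusted p = 0.000779). Olfml1, Matn4, Fmo1 and Chrdl1 rose 10.04-, 8.50-, 7.53- and 7.65-fold; Matn4 encodes a matrilin of the matrix, Fmo1 a flavin monooxygenase and Chrdl1 an antagonist of BMPs. The other rises that the rule named were the interferon-stimulated Iigp1, Ifi27l2a and Oasl2, the complement gene C4b, the secreted Wnt antagonist Sfrp1 and 1 predicted gene, Gm4951.

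The largest retained fall was that of Serpinb2 (ENSMUSG00000062345, chr1:107511423-107535478), an inhibitor of plasminogen activators, which was 14.1-fold lower. It was at 30.9, 28.9 and 12.5 in WT and at 2.40, 1.16 and 1.48 CPM in those labelled Bcl3-/- (log2 fold change -3.81, SE 0.48, edgeR adjusted p = 0.000854), and WT replicate 3 was the lowest WT library. Pkp1, a plakophilin of desmosomes, was at 12.3, 8.77 and 4.23 in WT and at 1.14, 0.750 and 0.626 CPM in those labelled Bcl3-/- (log2 fold change -3.29, SE 0.39, edgeR adjusted p = 0.000591). Sfn, the 14-3-3σ protein of stratified epithelium, was 5.34-fold lower (log2 fold change -2.42, SE 0.37, edgeR adjusted p = 0.00167). Of 9 epithelial markers, 6 were too low to be tested (Krt5, Krt14, Krt8, Krt18, Grhl2 and Esrp1) and 1 of the other 3, Trp63, was called higher, but not without WT replicate 1 or 2 or Bcl3-/- replicate 2 or 3. Ano1, a calcium-activated chloride channel, was at 16.5, 17.8 and 11.8 in WT and at 3.31, 2.69 and 3.92 CPM in those labelled Bcl3-/- (log2 fold change -2.21, SE 0.21, edgeR adjusted p = 0.000272). All 3 WT libraries lay near each other in this gene. Ligands of several receptor families were also among the falls. Hbegf, a ligand of the EGF receptor, was 3.89-fold lower at 83.8, 70.2 and 41.6 in WT against 18.3, 14.3 and 17.5 CPM (log2 fold change -1.96, SE 0.28, edgeR adjusted p = 0.00138). Ppbp, a chemokine of the CXC family, and Cxcr6, a receptor for CXCL16, were 3.85- and 4.94-fold lower. Sema4f, a transmembrane semaphorin, was 4.56-fold lower, and Coch, Ccbe1, Dynap and Prss46 were lower by 3.89-, 3.89-, 8.82- and 4.55-fold.

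**Figure D2:**
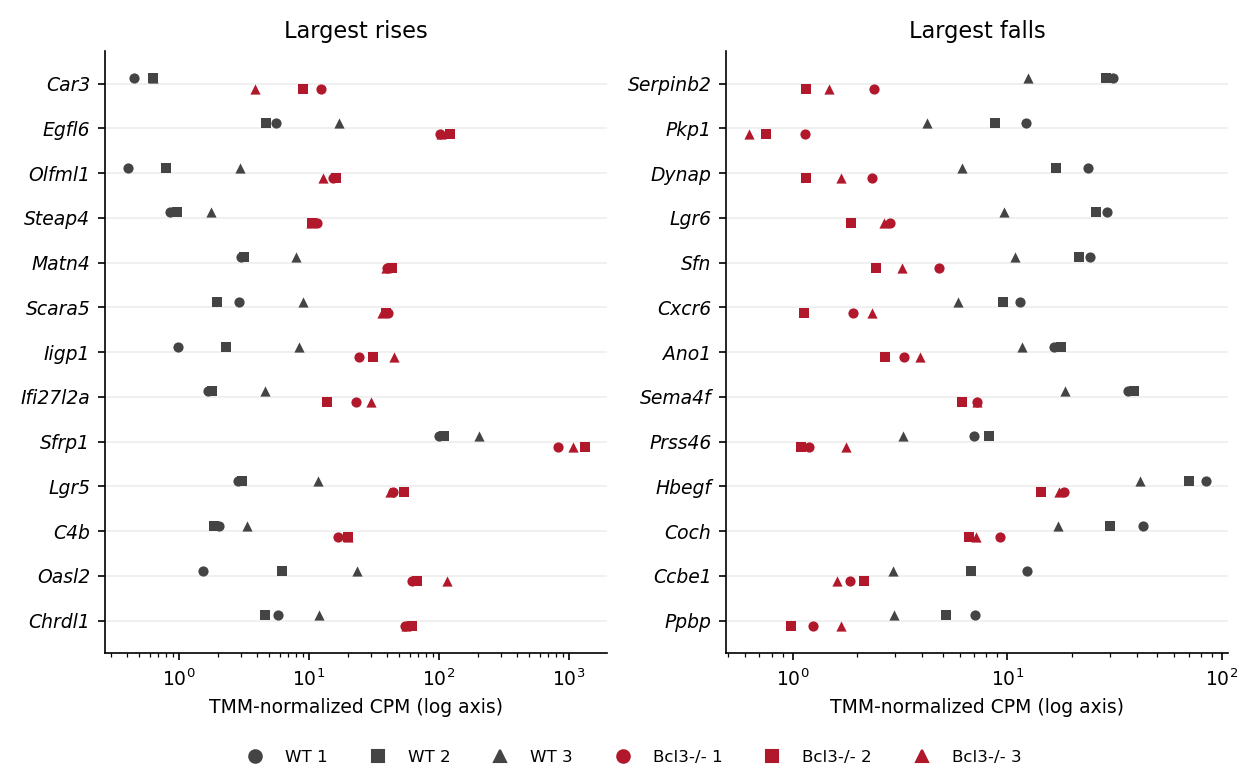
Level in CPM, on a log axis, of the 13 named genes that rose most and the 13 that fell most among retained calls, with 1 point per library and marker shapes for replicates 1 to 3. Groups that do not overlap were a condition for naming these genes, and WT replicate 3 is the WT point nearest to the other group in most of them; Car3 runs from 0.452, 0.637 and 0.639 in WT to 12.4, 9.00 and 3.85 CPM.

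Promoters from RefSeq (GRCm38.p6, 250 bases before to 50 after the start) were at hand for 11477 of the tested genes, and short motifs were counted in them on both strands. The TATA box, searched as TATAAA, was in 7.36% of these promoters, in 10.6% of those of higher genes and in 7.24% of those of lower genes. It was in 15.2% of the 374 promoters of genes that rose by more than 1 on the log2 scale and in 14.3% of the 112 of genes that fell by more than 1. The share over all 27025 promoters of the table was 14.2%. Stretches of the 100 bases before the start are shown for Serpinb2, which fell most, and for Igfbp4, one of the abundant genes that rose. They are Serpinb2 at chr1:107511323-107511422 on the plus strand and Igfbp4 at chr11:99041144-99041243 on the plus strand, read 5′ to 3′, and capitals mark the TATAAA match, whose first base lies 29 and 28 bases before the start.
Serpinb2: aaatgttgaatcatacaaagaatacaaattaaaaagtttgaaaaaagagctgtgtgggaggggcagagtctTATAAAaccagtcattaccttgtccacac
Igfbp4: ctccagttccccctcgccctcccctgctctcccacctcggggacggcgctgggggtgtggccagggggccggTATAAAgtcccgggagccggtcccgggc
The κB consensus, to which NF-κB dimers bind, was in 5.14% of the promoters of all tested genes, in 6.33% of those of higher and in 4.91% of those of lower genes. The interferon response element, GAAA repeated after any 2 bases, was in 3.2%, 7.37% and 1.94%, and a sterol element TCACNCCAC in 1.06%, 1.7% and 0.775%. Ano1, which fell, and Steap4 and Tlr2, which rose, each hold κB matches and are shown as examples, chosen after the matches were seen. Of the 227 named genes that changed, with or without a promoter at hand, 10 had a κB match that began before the start. Of these, 3 rose and 7 fell. These are counts without a share and leave out matches that begin at or after the start. They cannot be set against the shares above, which cover the whole promoter window. The examples are Ano1 at chr7:144738574-144738673 on the minus strand, Steap4 at chr5:7960222-7960321 on the plus strand and Tlr2 at chr3:83841609-83841808 on the minus strand. The Steap4 stretch covers bases 250 to 151 before the start and the Tlr2 stretch the 200 bases before it. The Ano1 stretch precedes a RefSeq start that lies inside the GENCODE span of the gene, chr7:144588549-144751974, and not at its 5′ end. Capitals mark the κB matches, which begin 43 bases before the start in Ano1 and 250 and 226 bases before it in Steap4. In Tlr2, 2 overlapping matches begin 173 and 172 bases before the start, and another that crosses the start is not in capitals.
Ano1: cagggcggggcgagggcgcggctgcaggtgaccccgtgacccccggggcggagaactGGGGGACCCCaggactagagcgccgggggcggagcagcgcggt
Steap4: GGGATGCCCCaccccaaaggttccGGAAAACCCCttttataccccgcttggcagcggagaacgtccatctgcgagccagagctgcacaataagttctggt
Tlr2: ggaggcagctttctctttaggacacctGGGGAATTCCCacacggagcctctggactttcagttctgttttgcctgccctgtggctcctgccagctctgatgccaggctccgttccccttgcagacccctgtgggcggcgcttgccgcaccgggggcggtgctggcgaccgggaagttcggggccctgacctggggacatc
These matches describe the letters of the reference and no binding was measured.

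The retained calls that changed most in mean CPM were abundant transcripts. Igfbp4, a binding protein of insulin-like growth factors, was at 439, 438 and 594 in WT and at 905, 1049 and 995 CPM in those labelled Bcl3-/- (log2 fold change 1.005, SE 0.16, edgeR adjusted p = 0.00217). Marcks, a membrane-bound substrate of protein kinase C that binds actin, was at 596, 636 and 837 in WT and at 1142, 1232 and 1119.7 CPM in those labelled Bcl3-/- (log2 fold change 0.76, SE 0.12, edgeR adjusted p = 0.00224). In both genes WT replicate 3 was the highest WT library and lay below every library labelled Bcl3-/-. Scd2, a desaturase of fatty acid synthesis, rose 1.58-fold (log2 fold change 0.66, SE 0.14, edgeR adjusted p = 0.00929). The collagens Col3a1 and Col1a2 and the matrix genes Lum, Postn and Dcn were other abundant rises that the rule named. So were Sfrp1, given above, and its relative Sfrp2. On the lower side, Ccn2, a matricellular growth factor, was at 1379, 998 and 653 in WT and at 435, 443 and 463 CPM in those labelled Bcl3-/- (log2 fold change -1.18, SE 0.25, edgeR adjusted p = 0.00793). The WT libraries were spread here, with replicate 1 the highest. Itgb1, the β1 subunit of integrins, was 1.47-fold lower (log2 fold change -0.56, SE 0.11, edgeR adjusted p = 0.00524), and Msn, the membrane-cytoskeleton linker moesin, was 1.50-fold lower (log2 fold change -0.59, SE 0.10, edgeR adjusted p = 0.00322). Timp2 and Timp3, inhibitors of matrix metalloproteinases, were 1.38- and 1.81-fold lower. Vim, Ccng1, Col4a1 and Ltbp1 also fell, by 1.24-, 1.44-, 1.34- and 2.04-fold.

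Genes that build ribosomes in the nucleolus were lower in most cases. Of 31 measured, 23 were lower and 0 were higher by edgeR, and 0 were higher at an unadjusted p under 0.05 or by DESeq2. The median log2 fold change was -0.34, against 0.0024 over all genes tested, and 9 of the falls were retained calls. Without 1 library the lower count was 12, 10, 25, 14, 11 and 13. Ddx21, an RNA helicase of rRNA processing, was at 94.0, 85.2 and 76.3 in WT and at 57.7, 63.0 and 58.7 CPM in those labelled Bcl3-/- (log2 fold change -0.51, SE 0.08, edgeR adjusted p = 0.00162). Nop2, a methyltransferase of 28S rRNA, was at 88.7, 91.3 and 80.3 in WT and at 64.1, 66.4 and 65.3 CPM in those labelled Bcl3-/- (log2 fold change -0.41, SE 0.07, edgeR adjusted p = 0.0038). Utp4, a subunit of the small-subunit processome, was 1.31-fold lower (log2 fold change -0.40, SE 0.07, edgeR adjusted p = 0.00266), and Wdr12, which acts in large-subunit assembly, was 1.28-fold lower (log2 fold change -0.36, SE 0.07, edgeR adjusted p = 0.00518). The steps were small, and in none of these 4 genes did the groups overlap. Genes with the symbol stems of ribosomal proteins were rarely called. By edgeR 0 of 70 genes with an Rpl symbol and 1 of 57 with an Rps symbol were called, with 0 and 1 at an unadjusted p under 0.05 and 0 and 1 by DESeq2. These stems were not limited to protein-coding genes, so they can take in pseudogenes and other genes beside the ribosomal proteins. They were chosen after their values were seen. Of 20 cytosolic tRNA synthetases 4 were lower and 0 higher (0 at an unadjusted p under 0.05 and 0 by DESeq2), the median was -0.16 and 0 falls were retained. Their count without 1 library was 0, 0, 6, 2, 3 and 2, and the 4 were Rars, Dars, Hars and Iars, each 1.18- to 1.22-fold lower. Of 19 heat shock genes 5 were lower, at a median of -0.18, among them Hspa4l (log2 fold change -0.47, SE 0.09, edgeR adjusted p = 0.0047), Hsf1, Hspa4 and Hspd1; the count was 1, 3, 5, 2, 1 and 2 without 1 library. Among 31 proteasome subunits 2 were lower (2, 1, 2, 2, 1 and 2 without 1 library), Psmd8 and Psmd11, and among 30 splicing factors 1 was higher, Hnrnpl, a call lost without Bcl3-/- replicate 3. Psmd8 alone of these 3 was retained, at 192, 214 and 176 in WT and at 139, 117 and 125 CPM in those labelled Bcl3-/- (log2 fold change -0.61, SE 0.12, edgeR adjusted p = 0.00545).

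The lysosomal genes that passed the test were all higher. Of 36 measured, 12 were higher and 0 lower by edgeR (1 lower at an unadjusted p under 0.05 and 0 by DESeq2), with a median of 0.20. Only 3 rises were retained, and without 1 library the higher count was 4, 4, 16, 7, 5 and 5. Naglu, an enzyme that breaks down heparan sulfate, was at 30.3, 27.8 and 35.4 in WT and at 47.5, 48.7 and 46.7 CPM in those labelled Bcl3-/- (log2 fold change 0.61, SE 0.09, edgeR adjusted p = 0.00162). Ctsh, a cysteine protease, was at 73.9, 65.9 and 71.3 in WT and at 84.2, 88.8 and 97.3 CPM in those labelled Bcl3-/- (log2 fold change 0.36, SE 0.07, edgeR adjusted p = 0.00591). Lamp2, a protein of the lysosomal membrane, was at 625, 545 and 645 in WT and at 776, 798 and 826 CPM in those labelled Bcl3-/- (log2 fold change 0.40, SE 0.08, edgeR adjusted p = 0.00793). Lipa, the acid lipase, rose 1.26-fold (edgeR adjusted p = 0.0113), not called without WT replicate 1 or 2 or Bcl3-/- replicate 3. Of the 3 retained genes none overlapped between groups. Autophagy genes did not follow, with 1 of 27 lower, Optn, not called without WT replicate 1 or 2 or Bcl3-/- replicate 1, 2 or 3, and 0 higher (3 at an unadjusted p under 0.05 and 0 by DESeq2). The palindrome CACGTG, an E-box that MYC and the TFE family of lysosome regulators are known to bind, was counted after these values were seen. It was in 7 of the 25 ribosome biogenesis promoters (28%) and in 10 of the 27 lysosomal promoters (37.0%), against 10.0% of those of all tested genes, so it was common in the list that fell as well as in the list that rose. Nop2 at chr6:125131783-125131882 and Naglu at chr11:101069994-101070093, both on the plus strand and both the 100 bases before the start, are shown with CACGTG in capitals, beginning 60 and 73 bases before the start.
Nop2: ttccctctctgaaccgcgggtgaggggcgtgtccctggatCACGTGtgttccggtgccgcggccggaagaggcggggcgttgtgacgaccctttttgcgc
Naglu: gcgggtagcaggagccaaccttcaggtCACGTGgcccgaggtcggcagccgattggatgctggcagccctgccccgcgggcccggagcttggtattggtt
Myc itself, a gene looked up after its values were seen, was at 88.0, 89.8 and 81.1 in WT and at 80.7, 78.0 and 86.8 CPM in those labelled Bcl3-/- (log2 fold change -0.08, SE 0.09, edgeR adjusted p = 0.621).

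**Figure D3:**
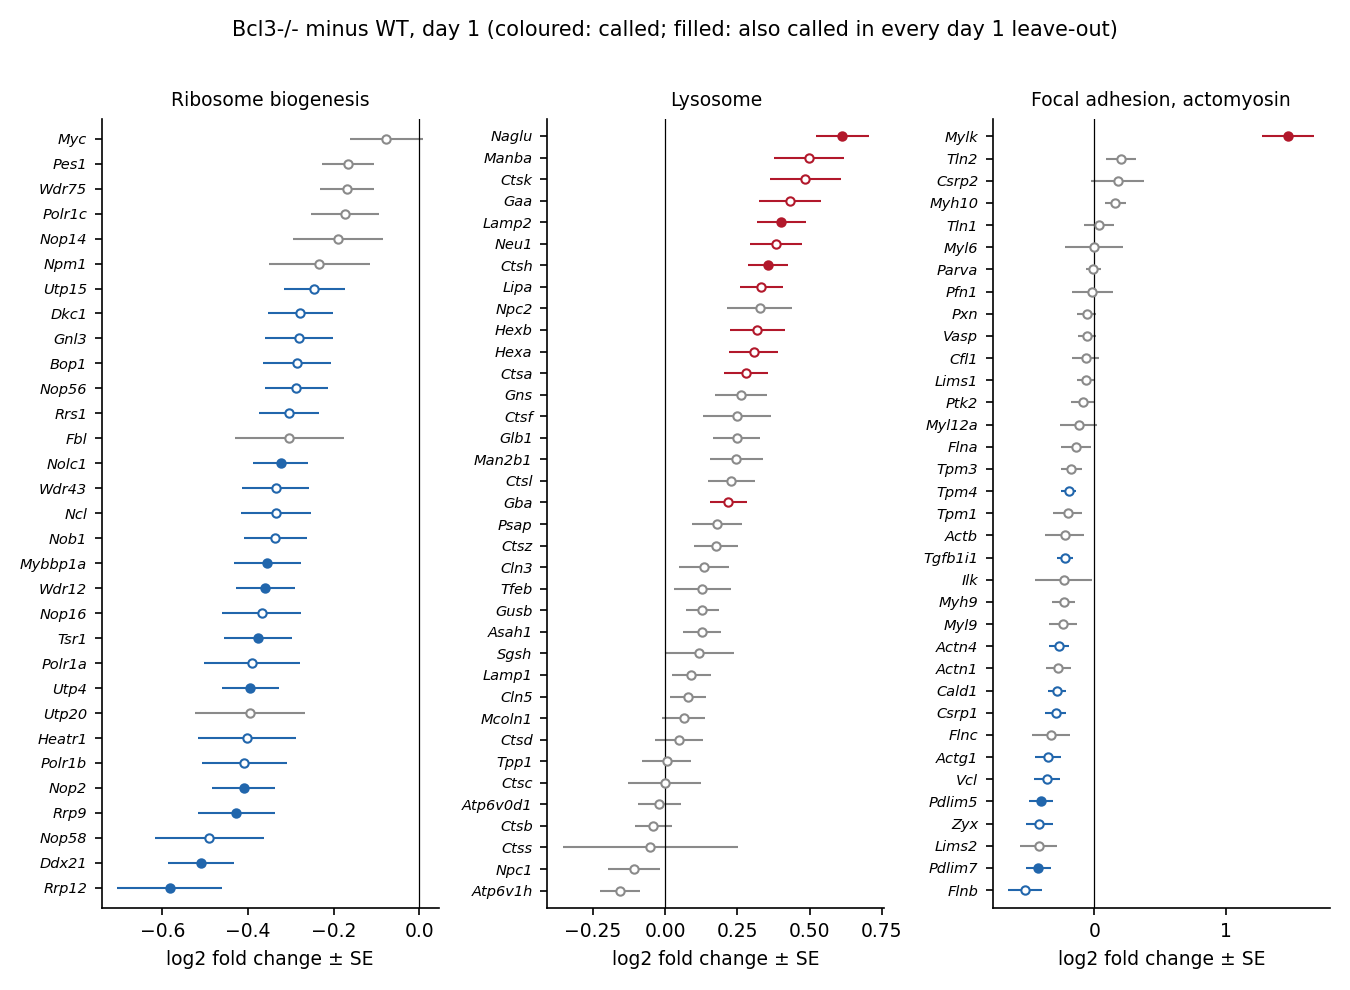
Log2 fold change of libraries labelled Bcl3-/- over WT on day 1, with its SE, for each measured gene of ribosome biogenesis, the lysosome, and focal adhesion and actomyosin; coloured points passed the test and filled points were also retained without any 1 library. The 23 called ribosome biogenesis genes and the 11 lower focal adhesion genes lie left of 0 and the 12 called lysosomal genes right of it.

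Genes of focal adhesions and the contractile cytoskeleton that passed the test were nearly all lower. Of 35 measured, 11 were lower and 1 was higher, with a median of -0.20. The lower count was 2, 4, 12, 5, 3 and 3 without 1 library, more than 1.5 times smaller without each library except WT replicate 3, and 2 falls were retained. Pdlim7, an adaptor of stress fibres, was at 157, 172 and 134 in WT and at 115, 116 and 114 CPM in those labelled Bcl3-/- (log2 fold change -0.43, SE 0.09, edgeR adjusted p = 0.00938). Pdlim5, of the same family, was 1.33-fold lower (log2 fold change -0.41, SE 0.09, edgeR adjusted p = 0.012), and Cald1, the actin-binding caldesmon, was 1.22-fold lower, not called without WT replicate 1 or 2 or Bcl3-/- replicate 2 or 3. The exception was Mylk, the myosin light chain kinase, which rose from 9.05, 9.99 and 14.3 in WT against 33.5, 30.5 and 29.2 CPM (log2 fold change 1.47, SE 0.20, edgeR adjusted p = 0.00125). Targets of the mechanosensitive cofactors YAP and TAZ were lower for 6 of 20 and higher for 1, with a median of -0.24, and the lower count was 5, 5, 8, 5, 6 and 5 without 1 library. Ankrd1, a nuclear ankyrin-repeat protein, was at 48.0, 29.9 and 24.8 in WT and at 10.6, 9.99 and 12.2 CPM in those labelled Bcl3-/- (log2 fold change -1.64, SE 0.24, edgeR adjusted p = 0.00142). Cavin2, a coat protein of caveolae, was at 283, 209.6 and 176 in WT and at 123, 114 and 114 CPM in those labelled Bcl3-/- (log2 fold change -0.93, SE 0.16, edgeR adjusted p = 0.00315). In both genes WT replicate 1 was the highest library and the libraries labelled Bcl3-/- were close together. Crim1 was 2.10-fold lower, and Ccn2 is given above. F3, the tissue factor, was the member that rose (log2 fold change 0.46, SE 0.13, edgeR adjusted p = 0.0277), not called without WT replicate 2 or 3 or Bcl3-/- replicate 2 or 3. The 5 called markers of smooth muscle were lower as well, as given above, and their part in these lists was not tested.

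Genes that guide axons and cell migration were called often and in both directions. The lists of this paragraph had 40%, 47.4% and 47.4% of members called, against 15.3% of all genes tested. Over all genes 9.03% were higher and 6.26% lower, and each list count in the text is to be read beside these shares. Of 30 semaphorins and plexins 8 were higher and 4 lower, with a median of 0.13, and without 1 library the counts were 6, 6, 8, 4, 5 and 6 higher and 3, 4, 6, 4, 3 and 4 lower. Sema3d, a secreted semaphorin, was at 22.1, 18.0 and 20.5 in WT and at 48.7, 43.8 and 43.0 CPM in those labelled Bcl3-/- (log2 fold change 1.17, SE 0.09, edgeR adjusted p = 8.72e-05). Sema5a, a transmembrane semaphorin, rose from 6.42, 5.69 and 10.01 in WT against 20.6, 21.3 and 19.2 CPM (log2 fold change 1.46, SE 0.21, edgeR adjusted p = 0.00142). Sema7a, which is anchored in the membrane by a lipid, fell from 11.04, 7.97 and 5.81 in WT against 3.21, 2.80 and 2.21 CPM (log2 fold change -1.58, SE 0.26, edgeR adjusted p = 0.00224), and Sema4f fell as given above. Ephrins and their Eph receptors were higher for 7 of 19 and lower for 2, at a median of 0.32, and the higher count without 1 library was 4, 5, 10, 7, 5 and 6. The receptors Epha5 (log2 fold change 1.09, SE 0.14, edgeR adjusted p = 0.00103), Ephb6 (log2 fold change 0.75, SE 0.12, edgeR adjusted p = 0.00224), Ephb4 (log2 fold change 0.48, SE 0.09, edgeR adjusted p = 0.00372) and Ephb3 (log2 fold change 0.92, SE 0.17, edgeR adjusted p = 0.00428) rose. Ephb4, the receptor of ephrin B2 in bone and vessels, was at 60.7, 60.9 and 70.0 in WT and at 85.9, 97.7 and 83.8 CPM in those labelled Bcl3-/-. The ligand Efna3 and the receptor Epha2 fell 1.71- and 1.69-fold. Slits, netrins and their receptors were higher for 7 of 19 and lower for 2, at a median of 0.18, with 4, 4, 6, 6, 4 and 6 higher and 2, 2, 2, 2, 2 and 2 lower without 1 library. Slit3, a secreted ligand of ROBO receptors, was at 117, 118 and 182 in WT and at 250.0, 305 and 266 CPM in those labelled Bcl3-/- (log2 fold change 0.98, SE 0.19, edgeR adjusted p = 0.0064). Robo2, a receptor of slits, was at 10.1, 10.4 and 12.9 in WT and at 21.7, 22.0 and 18.8 CPM in those labelled Bcl3-/- (log2 fold change 0.90, SE 0.16, edgeR adjusted p = 0.00323). Rgma, a repulsive guidance molecule and BMP co-receptor, rose 1.92-fold (log2 fold change 0.94, SE 0.18, edgeR adjusted p = 0.0047). Flrt2, an adhesion protein that binds UNC5 receptors, and Unc5b, a netrin receptor of that group, fell together. Flrt2 was at 552, 405 and 387 in WT and at 244, 208 and 222 CPM in those labelled Bcl3-/- (log2 fold change -0.996, SE 0.15, edgeR adjusted p = 0.00155), and Unc5b was 1.87-fold lower (log2 fold change -0.90, SE 0.18, edgeR adjusted p = 0.00672).

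**Figure D4:**
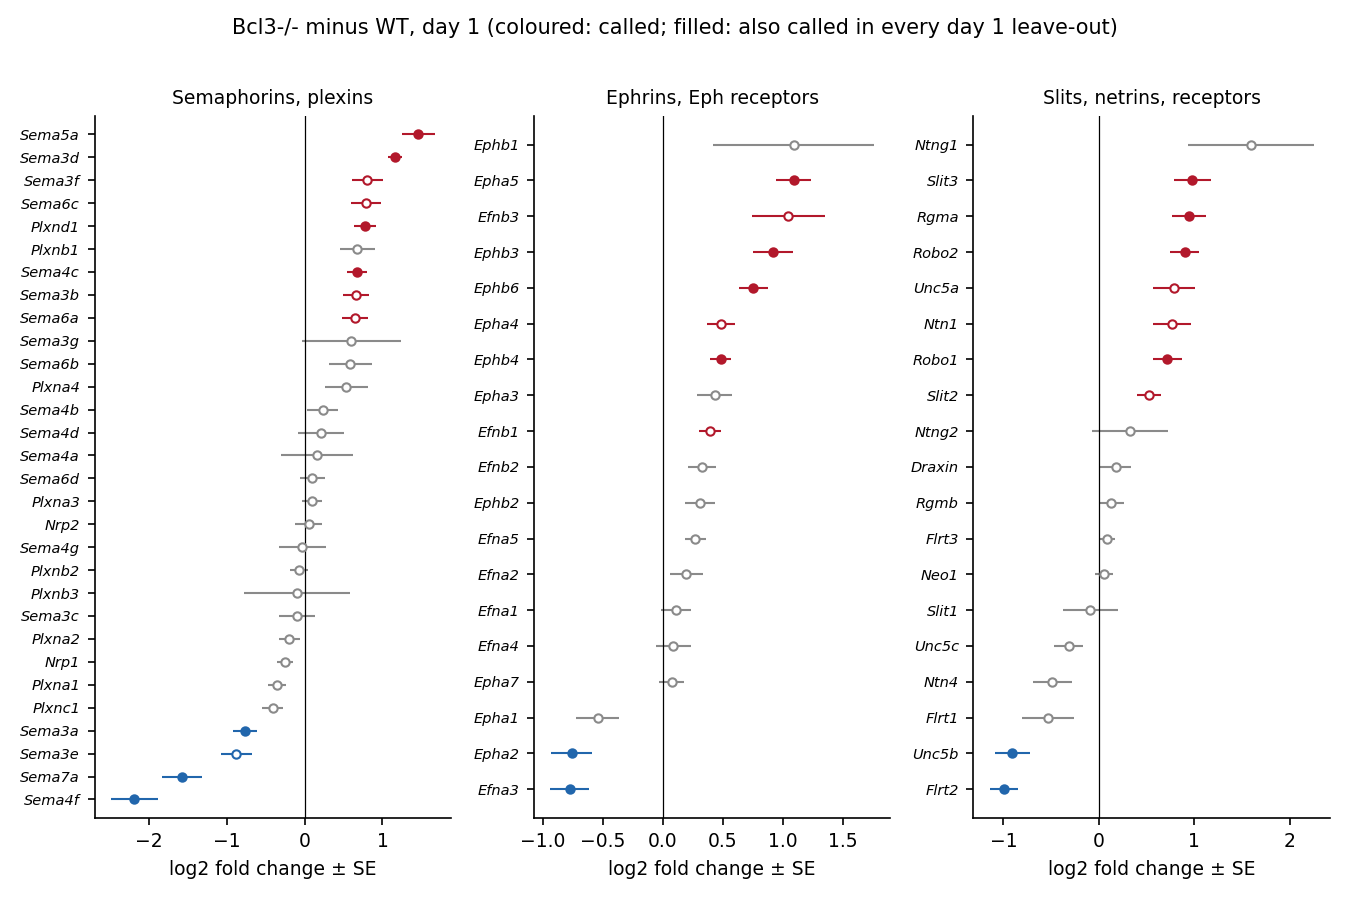
Log2 fold change of libraries labelled Bcl3-/- over WT on day 1, with its SE, for each measured member of the semaphorin and plexin, ephrin and Eph, and slit and netrin lists; coloured points passed the test and filled points were also retained without any 1 library. Rises outnumber falls at 8 to 4, 7 to 2 and 7 to 2, and Sema4f at -2.19 lies farthest from 0.

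The ligands Hbegf, Ereg and Bdnf fell, while the receptors Egfr and Ntrk2 rose. Of 15 genes of the EGF family, 3 were lower, 1 was higher, and these counts were the same without any 1 of the 6 libraries. Besides Hbegf, the ligand Ereg was at 41.5, 30.8 and 22.3 in WT and at 9.30, 8.76 and 8.50 CPM in those labelled Bcl3-/- (log2 fold change -1.83, SE 0.26, edgeR adjusted p = 0.00138), and Errfi1, a feedback inhibitor of the receptor, was 1.64-fold lower (log2 fold change -0.71, SE 0.13, edgeR adjusted p = 0.00437). The receptor Egfr rose, from 63.9, 61.4 and 86.4 in WT against 113, 119.9 and 110.1 CPM (log2 fold change 0.70, SE 0.13, edgeR adjusted p = 0.00481). Among neurotrophins, HGF, midkine and GDNF factors with their receptors, 7 of 21 were higher, Hgf, Mdk and Ptn among them, and 3 lower, with 3, 3, 7, 4, 3 and 4 higher and 2, 2, 4, 2, 2 and 3 lower without 1 library. The neurotrophin Bdnf fell and was at 18.1, 14.9 and 13.4 in WT and at 9.66, 8.83 and 10.4 CPM in those labelled Bcl3-/- (log2 fold change -0.68, SE 0.14, edgeR adjusted p = 0.0085). The receptors Ntrk2, which binds BDNF, and Sort1, which binds pro-neurotrophins, rose; Ntrk2 was at 0.859, 0.888 and 1.30 in WT and at 6.35, 4.94 and 3.13 CPM in those labelled Bcl3-/- (log2 fold change 2.23, SE 0.32, edgeR adjusted p = 0.00138) and Sort1 rose 1.44-fold (log2 fold change 0.53, SE 0.10, edgeR adjusted p = 0.00522). In the PDGF, VEGF and angiopoietin list 7 of 24 were higher and 4 lower, with counts of 6, 6, 9, 7, 7 and 6 higher and 2, 2, 7, 3, 2 and 3 lower without 1 library. Pdgfra, the receptor for most PDGF ligands, rose from 71.9, 80.1 and 117 in WT against 168, 234 and 189 CPM (log2 fold change 1.13, SE 0.19, edgeR adjusted p = 0.00243), while its ligand Pdgfc fell from 167, 156 and 143 in WT against 114, 93.0 and 108 CPM (log2 fold change -0.57, SE 0.11, edgeR adjusted p = 0.0052). Angpt1 and its receptor Tek both rose. Angpt1 was at 9.81, 11.02 and 17.3 in WT and at 29.2, 41.9 and 36.6 CPM in those labelled Bcl3-/- (log2 fold change 1.48, SE 0.24, edgeR adjusted p = 0.0021) and Tek at 1.90, 2.66 and 2.48 in WT and at 7.00, 8.08 and 4.68 CPM in those labelled Bcl3-/- (log2 fold change 1.47, SE 0.22, edgeR adjusted p = 0.00167). Tek is also a marker of endothelium. Erg was the other of 8 tested endothelial markers called, both higher (1, 1, 2, 1, 1 and 1 higher without 1 library). The summed level of the list ran from 12.0 to 12.8 CPM in WT and from 16.4 to 18.99 CPM in those labelled Bcl3-/-, with Pecam1 and Cdh5 at or below 1.19 CPM. Tek itself went from a mean of 2.35 to 6.59 CPM. Kdr was at 2.31, 1.75 and 1.52 in WT and at 0.961, 1.30 and 0.889 CPM in those labelled Bcl3-/- and Esam at 2.31, 1.48 and 1.41 in WT and at 0.885, 0.852 and 1.12 CPM in those labelled Bcl3-/-; both were lower at an unadjusted p under 0.05, 0 of the list were called lower by edgeR and 1 by DESeq2. The part of endothelial cells in these values was not tested.

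Of the prostaglandin genes, Pla2g4a and Ptgs2 fell. Pla2g4a, the phospholipase that frees arachidonic acid, was at 181, 149 and 122 in WT and at 79.5, 88.9 and 86.1 CPM in those labelled Bcl3-/- (log2 fold change -0.83, SE 0.14, edgeR adjusted p = 0.00254). Ptgs2, the inducible cyclooxygenase, was at 557, 370.0 and 223 in WT and at 101, 90.4 and 122 CPM in those labelled Bcl3-/- (log2 fold change -1.87, SE 0.34, edgeR adjusted p = 0.00426), with WT replicate 1 the highest library. Hpgd, the enzyme that inactivates prostaglandins, rose 3.71-fold from 2.40, 2.44 and 3.60 in WT against 8.44, 13.4 and 9.72 CPM (log2 fold change 1.89, SE 0.32, edgeR adjusted p = 0.00264). Ptgfr, the receptor of prostaglandin F2α, rose 2.51-fold (log2 fold change 1.33, SE 0.23, edgeR adjusted p = 0.0032). Ptgds and Ptger3 were the other higher genes of the pathway, and neither call was retained. Of the 18 measured genes of the pathway 4 were higher and 2 lower, at a median of -0.0046, with higher counts of 3, 2, 5, 4, 4 and 3 and lower counts of 2, 2, 2, 2, 2 and 3 without 1 library. Of 17 hormone receptors and their partners 4 were higher and 1 lower. The leptin receptor Lepr, known from marrow stromal cells, was the retained call, at 66.7, 44.4 and 39.2 in WT and at 19.5, 17.6 and 20.2 CPM in those labelled Bcl3-/- (log2 fold change -1.39, SE 0.27, edgeR adjusted p = 0.00543). Thra, a thyroid hormone receptor, rose 1.76-fold, not called without WT replicate 1 or 2, Ramp2 rose 1.71-fold, not called without WT replicate 1 or 2 or Bcl3-/- replicate 1, 2 or 3. Prlr rose 3.54-fold, not called without WT replicate 1, 2 or 3 or Bcl3-/- replicate 1 or 2. Without 1 library the list gave 1, 0, 2, 1, 1 and 2 higher. Of 13 genes of signaling by extracellular ATP and adenosine 3 were higher and 1 lower (2 higher without any 1 library, and 0, 1, 0, 0, 0 and 1 lower). P2rx4, an ATP-gated channel, was at 57.6, 52.5 and 55.0 in WT and at 69.2, 67.3 and 68.0 CPM in those labelled Bcl3-/- (log2 fold change 0.31, SE 0.06, edgeR adjusted p = 0.00716). Entpd2, an ectoenzyme that hydrolyses ATP, was at 0.633, 0.751 and 0.879 in WT and at 2.17, 2.73 and 1.65 CPM in those labelled Bcl3-/- (log2 fold change 1.50, SE 0.30, edgeR adjusted p = 0.00619).

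Genes of retinoic acid handling were called in both directions. Aldh1a3, which makes retinoic acid, fell 2.32-fold (log2 fold change -1.21, SE 0.24, edgeR adjusted p = 0.00653), and Cyp26b1, which breaks it down, fell from 18.8, 13.6 and 16.5 in WT against 8.72, 7.77 and 9.39 CPM (log2 fold change -0.91, SE 0.13, edgeR adjusted p = 0.00145). Aldh1a1, another enzyme of synthesis, rose 1.83-fold (log2 fold change 0.87, SE 0.20, edgeR adjusted p = 0.0129), and Dhrs3, which returns retinal to retinol, rose 1.53-fold (log2 fold change 0.61, SE 0.12, edgeR adjusted p = 0.00691). In all, 4 of 17 were higher and 2 lower, with higher counts of 2, 2, 4, 3, 3 and 2 without 1 library. Of 12 targets of the glucocorticoid receptor 3 were higher and 2 lower (2, 2, 4, 2, 2 and 2 higher without 1 library), with Klf15, a Krüppel-like factor, at 0.678, 1.14 and 1.38 in WT and at 3.62, 4.02 and 3.03 CPM in those labelled Bcl3-/- (log2 fold change 1.69, SE 0.24, edgeR adjusted p = 0.00142). Cebpd rose 1.65-fold, while Sgk1, a kinase of ion transport, fell 1.81-fold. Of 18 clock genes 6 were higher and 1 lower, at a median of 0.13, and the higher count was 4, 2, 8, 3, 5 and 4 without 1 library. Dbp, an output gene of the clock, rose from 2.80, 2.85 and 3.91 in WT against 6.40, 6.89 and 6.52 CPM (log2 fold change 1.04, SE 0.17, edgeR adjusted p = 0.00238). Npas2, a partner of BMAL1, rose from 4.43, 5.94 and 8.04 in WT against 12.9, 16.2 and 16.3 CPM (log2 fold change 1.29, SE 0.22, edgeR adjusted p = 0.00274). Arntl, which encodes BMAL1, was the member that fell, from 29.6, 28.9 and 29.5 in WT against 24.5, 22.7 and 22.9 CPM (log2 fold change -0.33, SE 0.08, edgeR adjusted p = 0.0133), not called without Bcl3-/- replicate 2. The hour at which each culture was lysed was not given in the sources used here.

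Cell adhesion genes changed gene by gene. Of 23 adhesion genes of the immunoglobulin family 6 were higher and 2 lower, with 5, 5, 5, 6, 5 and 5 higher and 2, 2, 4, 2, 2 and 2 lower without 1 library. Several neural adhesion genes started from very low levels in WT. Chl1 was at 0.181, 0.159 and 0.266 in WT and at 1.77, 3.75 and 2.24 CPM in those labelled Bcl3-/- (log2 fold change 3.64, SE 0.40, edgeR adjusted p = 0.000414). Ncam2 was at 0.181, 0.0683 and 0.186 in WT and at 1.01, 1.30 and 1.15 CPM in those labelled Bcl3-/- (log2 fold change 3.03, SE 0.45, edgeR adjusted p = 0.00157), and Nfasc, neurofascin, at 0.814, 0.888 and 1.70 in WT and at 5.18, 5.59 and 5.67 CPM in those labelled Bcl3-/- (log2 fold change 2.24, SE 0.24, edgeR adjusted p = 0.000385). Their relatives Ncam1, from 268, 241 and 256 in WT against 181, 148 and 169 CPM (log2 fold change -0.62, SE 0.11, edgeR adjusted p = 0.00313), and Nrcam, 1.50-fold lower (edgeR adjusted p = 0.00763), fell. Of 8 tested neural and glial markers 1 was called higher (0, 0, 0, 0, 1 and 0 without 1 library), and their summed level, 30.5 to 33.2 CPM in WT and 28.7 to 38.2 CPM in the other group, overlapped. Of 21 cadherins, catenins and desmosomal genes 2 were higher and 4 lower (1, 1, 3, 1, 1 and 1 higher and 3, 4, 4, 3, 3 and 3 lower without 1 library). Ctnna2, an α-catenin of neurons, rose from 3.30, 3.42 and 3.52 in WT against 8.27, 9.27 and 6.26 CPM (log2 fold change 1.21, SE 0.17, edgeR adjusted p = 0.00126). Pkp2, a plakophilin, fell from 20.6, 17.8 and 12.9 in WT against 5.69, 5.52 and 5.57 CPM (log2 fold change -1.61, SE 0.24, edgeR adjusted p = 0.00156), Cdh6 fell 2.26-fold (edgeR adjusted p = 0.00484), and Cdh11, the osteoblast cadherin, rose 1.41-fold, not called without WT replicate 1 or 2 or Bcl3-/- replicate 1, 2 or 3. Of 21 tight and gap junction genes 4 were lower and 0 higher (1 at an unadjusted p under 0.05 and 0 by DESeq2), and 1, 1, 4, 2, 2 and 1 were lower without 1 library. Of 35 proteoglycans and enzymes of their sugar chains 5 were higher and 3 lower (2, 2, 6, 5, 2 and 4 higher and 2, 2, 4, 2, 4 and 3 lower without 1 library). Cd44, the hyaluronan receptor, fell from 653, 549 and 521 in WT against 323, 290.1 and 332 CPM (log2 fold change -0.87, SE 0.12, edgeR adjusted p = 0.00138), and Sdc4, a syndecan of focal adhesions, fell 1.42-fold (log2 fold change -0.50, SE 0.09, edgeR adjusted p = 0.00465). Gpc3, a glypican, rose 2.01-fold (log2 fold change 1.01, SE 0.20, edgeR adjusted p = 0.00619), and so did Chst15, a sulfotransferase of chondroitin chains (log2 fold change 0.94, SE 0.14, edgeR adjusted p = 0.00164).

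Of 25 potassium channel genes 4 were higher and 4 lower, with 3 rises and 0 falls retained, and without 1 library the counts were 3, 4, 5, 3, 3 and 3 and 2, 2, 4, 2, 0 and 3. The subunits of the ATP-sensitive channel of mesenchymal cells rose as a pair. Kcnj8, the pore, was at 0.0905, 0.137 and 0.213 in WT and at 1.64, 1.16 and 1.38 CPM in those labelled Bcl3-/- (log2 fold change 3.16, SE 0.51, edgeR adjusted p = 0.00225). Abcc9, the sulfonylurea receptor that surrounds it, was at 0.633, 1.07 and 1.15 in WT and at 4.12, 5.32 and 3.46 CPM in those labelled Bcl3-/- (log2 fold change 2.12, SE 0.35, edgeR adjusted p = 0.00254). Kcne4, a regulatory subunit, rose from 16.1, 16.3 and 21.4 in WT against 34.3, 45.3 and 37.6 CPM (log2 fold change 1.12, SE 0.19, edgeR adjusted p = 0.00285). Kcnn4 and Kcnk2 fell 1.76- and 1.85-fold, calls lost without Bcl3-/- replicate 2. Of 31 calcium, sodium and TRP channel genes 4 were higher and 2 lower (2, 2, 6, 2, 3 and 3 higher and 1, 1, 2, 1, 0 and 0 lower without 1 library). That is 19.4% called, against 15.3% of all genes tested. Scn7a, a sodium-sensing channel, rose from 4.61, 3.28 and 8.10 in WT against 18.1, 29.7 and 28.8 CPM (log2 fold change 2.25, SE 0.31, edgeR adjusted p = 0.00133). The mechanosensitive channel Piezo1 fell 1.46-fold (edgeR adjusted p = 0.0231), not called without WT replicate 1 or Bcl3-/- replicate 1, 2 or 3. Of 26 amino acid and glucose transporters 5 were higher and 2 lower (3, 2, 5, 4, 3 and 4 higher and 1, 1, 2, 2, 3 and 2 lower without 1 library). Slc1a3, a glutamate transporter, was at 18.4, 20.9 and 35.9 in WT and at 80.3, 100.3 and 84.9 CPM in those labelled Bcl3-/- (log2 fold change 1.81, SE 0.23, edgeR adjusted p = 0.000853). Slc7a2, a transporter of arginine and lysine, was at 12.4, 15.2 and 22.2 in WT and at 40.1, 49.0 and 40.6 CPM in those labelled Bcl3-/- (log2 fold change 1.37, SE 0.22, edgeR adjusted p = 0.00194). WT replicate 3 was the highest WT library for both.

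Genes of detoxification were called often, at 39.4% against 15.3% of all genes tested, and nearly all called ones were higher. Of 33 measured, 12 were higher and 1 was lower, at a median of 0.35, with 8 rises retained and a higher count of 9, 8, 14, 9, 10 and 9 without 1 library. Cyp7b1, an oxysterol hydroxylase, was at 3.12, 3.64 and 5.14 in WT and at 12.1, 14.1 and 12.1 CPM in those labelled Bcl3-/- (log2 fold change 1.67, SE 0.17, edgeR adjusted p = 0.000291). Mgst1, a microsomal glutathione transferase, was at 15.4, 20.8 and 25.4 in WT and at 50.9, 54.9 and 53.4 CPM in those labelled Bcl3-/- (log2 fold change 1.36, SE 0.18, edgeR adjusted p = 0.000897). Gstm7, whose sequence is close to that of other Gstm genes so that reads may be split between them, rose from 0.497, 0.387 and 0.586 in WT against 1.97, 2.08 and 0.988 CPM (log2 fold change 1.78, SE 0.31, edgeR adjusted p = 0.0031), and Fmo1 is given above. Ephx2, an epoxide hydrolase, fell 1.58-fold (log2 fold change -0.66, SE 0.14, edgeR adjusted p = 0.00918). Of 30 genes of fatty acid oxidation and peroxisomes 6 were higher and 0 lower (0 at an unadjusted p under 0.05 and 0 by DESeq2), with higher counts of 3, 2, 8, 3, 3 and 2 without 1 library. Ppargc1a, the coactivator PGC-1α of mitochondrial genes, rose from low values at 0.407, 0.228 and 0.240 in WT against 1.24, 2.83 and 1.25 CPM (log2 fold change 2.65, SE 0.39, edgeR adjusted p = 0.00151). Acsl3, which activates fatty acids, rose from 63.8, 73.4 and 84.8 in WT against 109, 119 and 111 CPM (log2 fold change 0.61, SE 0.10, edgeR adjusted p = 0.00202). Of 24 genes of lipid droplets and glyceride turnover 6 were higher and 2 lower (2, 3, 5, 2, 2 and 4 higher and 0, 1, 2, 0, 0 and 2 lower without 1 library). Lpl, the lipoprotein lipase, was at 19.4, 16.8 and 29.0 in WT and at 73.6, 83.7 and 71.1 CPM in those labelled Bcl3-/- (log2 fold change 1.81, SE 0.26, edgeR adjusted p = 0.00145), and Lipe, the hormone-sensitive lipase, rose 1.66-fold (log2 fold change 0.73, SE 0.15, edgeR adjusted p = 0.00794). Of 3 fat cell markers that could be tested Car3 was called, and all 3 were higher at an unadjusted p under 0.05. Fabp4 was at 0.769, 0.888 and 0.746 in WT and at 1.24, 1.87 and 1.35 CPM in those labelled Bcl3-/- and Pparg at 7.24, 6.97 and 6.47 in WT and at 7.41, 9.65 and 8.30 CPM in those labelled Bcl3-/-. The summed level of the list ran from 7.91 to 8.52 CPM in WT and from 13.6 to 21.1 CPM in those labelled Bcl3-/-, while Adipoq, Plin1, Cidec and Lep were at or below 0.136 CPM in every library. The part of fat cells in the lipid genes was not tested. Cav1 and Cav2, the caveolins, fell 1.38- and 1.35-fold, calls lost without WT replicate 1 or Bcl3-/- replicate 1 or 2, and for Cav1 also without WT replicate 2. In the list of serine and folate metabolism 2 of 20 were higher and 2 lower (2, 2, 3, 2, 1 and 2 higher and 0, 0, 4, 1, 0 and 0 lower without 1 library), with Aldh1l1, a folate dehydrogenase of the cytosol, at 7.15, 5.33 and 10.2 in WT and at 25.5, 33.2 and 29.3 CPM in those labelled Bcl3-/- (log2 fold change 1.96, SE 0.19, edgeR adjusted p = 0.000272). Called members were 20% of this list, against 15.3% of all genes tested.

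**Figure D5:**
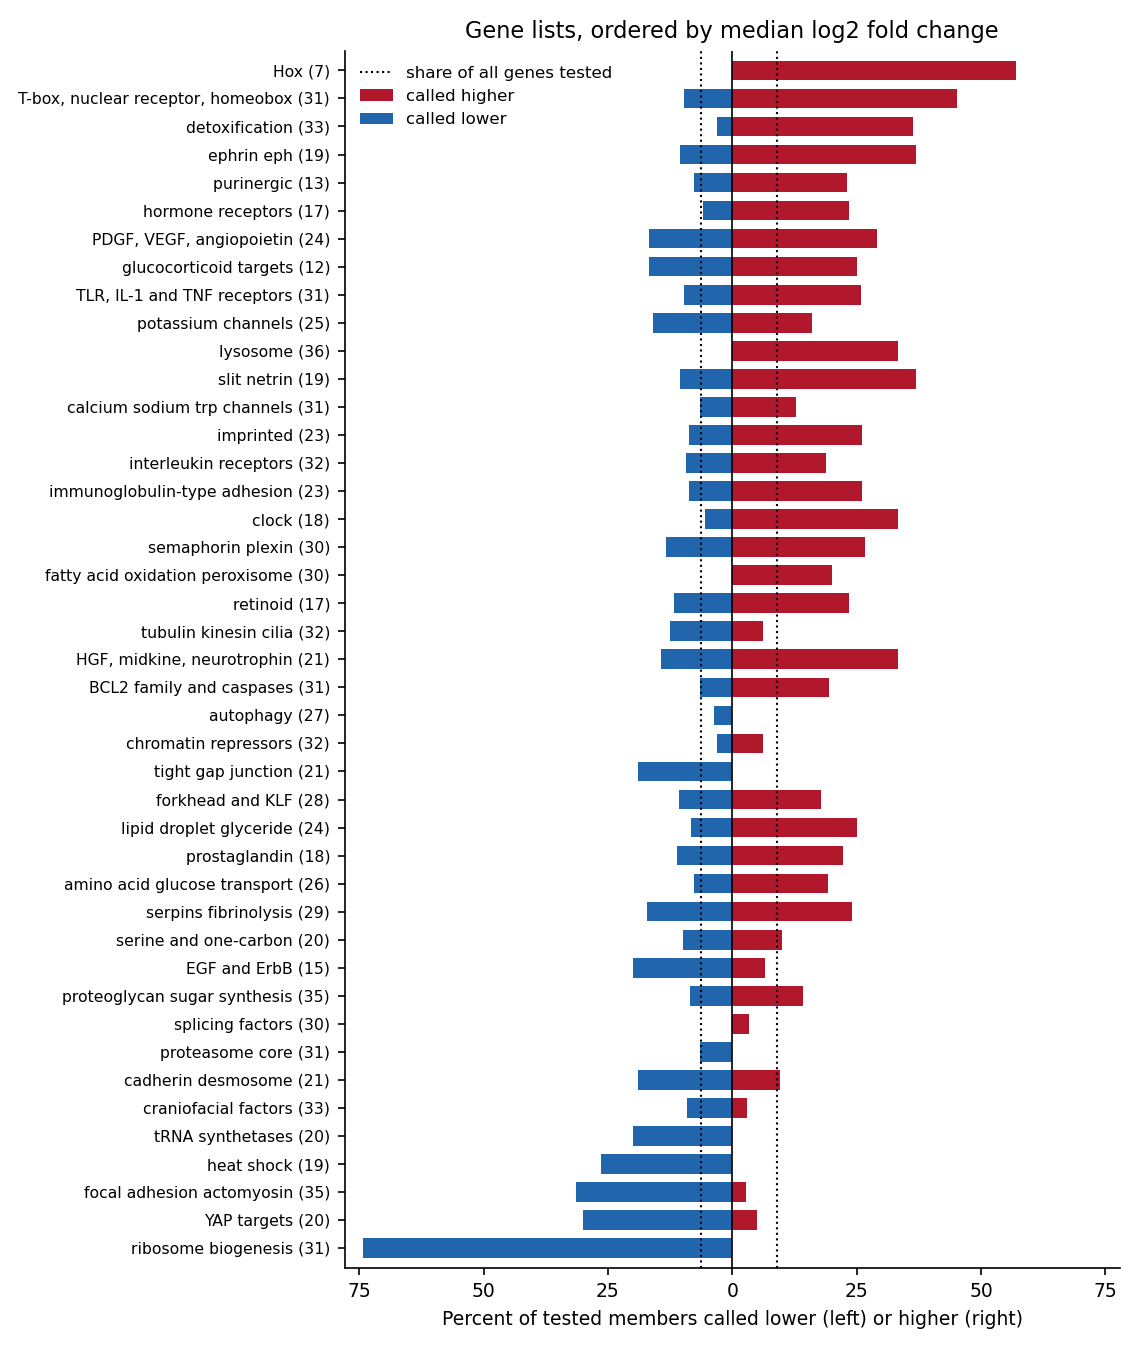
Percent of the measured members of functional gene lists that were higher (to the right) or lower (to the left) in libraries labelled Bcl3-/- on day 1. Dotted lines mark the share over all 16318 genes tested, 9.03% higher and 6.26% lower; ribosome biogenesis, with 23 of 31 members lower, reaches farthest to the left.

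Patterning transcription factors differed by list. In the first list below and among Hox genes rises outnumbered falls, with 54.8% and 57.1% called against 15.3% of all genes tested. Craniofacial factors were called in both directions, at 12.1%. Over all genes 9.03% were higher and 6.26% lower. In the list of T-box, nuclear receptor, EBF, IRX, NFI, OSR and MEIS genes 14 of 31 were higher and 3 lower, at a median of 0.39, with 8 rises retained and a higher count of 8, 8, 15, 11, 9 and 11 without 1 library. Osr2, an odd-skipped factor of joints and palate, was at 1.09, 1.37 and 2.58 in WT and at 7.71, 8.22 and 5.50 CPM in those labelled Bcl3-/- (log2 fold change 2.06, SE 0.29, edgeR adjusted p = 0.00131). Its relative Osr1 rose 1.56-fold (log2 fold change 0.64, SE 0.11, edgeR adjusted p = 0.00289), Tbx15 rose 1.54-fold (log2 fold change 0.62, SE 0.10, edgeR adjusted p = 0.00217) and Meis2 rose 1.47-fold (log2 fold change 0.55, SE 0.10, edgeR adjusted p = 0.00403). Scx, the tendon factor scleraxis, fell from 28.4, 29.7 and 26.2 in WT against 19.8, 14.6 and 18.1 CPM (log2 fold change -0.68, SE 0.14, edgeR adjusted p = 0.00793). Only 7 of 25 Hox genes had enough reads, and 4 of them were higher and 0 lower (0 at an unadjusted p under 0.05 and 0 by DESeq2), with counts of 4, 3, 4, 4, 3 and 3 without 1 library. Hoxd8 was at 10.9, 9.04 and 10.3 in WT and at 19.5, 22.1 and 19.5 CPM in those labelled Bcl3-/- (log2 fold change 1.02, SE 0.13, edgeR adjusted p = 0.000897). Hoxd9 and Hoxd4 rose with calls lost without Bcl3-/- replicate 3 for Hoxd9 and without WT replicate 2 or Bcl3-/- replicate 1 or 2 for Hoxd4. Of 33 craniofacial factors 1 was higher and 3 lower (1, 1, 3, 1, 1 and 1 higher and 2, 3, 4, 3, 2 and 3 lower without 1 library). That is 12.1% called, below the share of all genes tested. Meox2 rose from 6.74, 7.31 and 11.5 in WT against 26.8, 31.8 and 28.5 CPM (log2 fold change 1.76, SE 0.19, edgeR adjusted p = 0.000382). Alx4, which patterns the skull vault, fell from 90.9, 86.9 and 84.0 in WT against 60.9, 56.1 and 58.5 CPM (log2 fold change -0.58, SE 0.09, edgeR adjusted p = 0.00157), Dlx2 fell 2.20-fold (log2 fold change -1.14, SE 0.22, edgeR adjusted p = 0.00547), and Msx2 fell 1.65-fold, not called without WT replicate 1 or Bcl3-/- replicate 2. Among 28 forkhead and Krüppel-like factors 5 were higher and 3 lower (1, 2, 6, 1, 3 and 3 higher and 2, 1, 3, 2, 1 and 1 lower without 1 library), with Klf10, a gene induced early by TGFβ, at 137, 117 and 81.0 in WT and at 52.7, 59.6 and 56.9 CPM in those labelled Bcl3-/- (log2 fold change -0.99, SE 0.16, edgeR adjusted p = 0.00206).

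Among 23 imprinted genes 6 were higher and 2 lower, with 4 rises retained and higher counts of 4, 5, 6, 4, 5 and 6 without 1 library. Cdkn1c, the inhibitor p57 of cyclin-dependent kinases, was at 6.92, 9.02 and 15.8 in WT and at 82.3, 67.1 and 69.9 CPM in those labelled Bcl3-/-, a 6.83-fold rise (log2 fold change 2.77, SE 0.33, edgeR adjusted p = 0.000591). The zinc finger gene Plagl1 was at 88.4, 85.6 and 96.7 in WT and at 144, 139 and 133 CPM in those labelled Bcl3-/- (log2 fold change 0.62, SE 0.12, edgeR adjusted p = 0.00656). Dlk1, a membrane protein that holds back fat cell formation, rose from 37.2, 38.5 and 32.9 in WT against 71.8, 85.4 and 58.6 CPM (log2 fold change 0.99, SE 0.21, edgeR adjusted p = 0.00829), and Mest rose 2.62-fold (log2 fold change 1.39, SE 0.24, edgeR adjusted p = 0.00304). Cdkn1c is known to be expressed from the maternal allele, and Plagl1, Dlk1 and Mest from the paternal allele. H19 and Peg3 were the other higher genes. The called falls, Snrpn and Zim1, were both lost without WT replicate 1 or 2 or Bcl3-/- replicate 2 or 3, and Zim1 also without WT replicate 3. Of 32 genes of chromatin repression 2 were higher and 1 lower, and 0 of these calls were retained.

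Genes of cell death and innate sensing changed in part. Of 31 BCL2 family members, caspases and effectors of lytic death 6 were higher and 2 lower, with 4 rises retained and 4, 4, 5, 5, 4 and 4 higher and 0, 2, 2, 2, 0 and 2 lower without 1 library. Bmf, a BH3-only protein released from the cytoskeleton, was at 0.678, 0.842 and 0.506 in WT and at 2.35, 2.76 and 2.83 CPM in those labelled Bcl3-/- (log2 fold change 1.95, SE 0.20, edgeR adjusted p = 0.000291). Casp12 rose from 22.0, 20.6 and 29.7 in WT against 43.2, 51.0 and 50.8 CPM (log2 fold change 1.002, SE 0.13, edgeR adjusted p = 0.000897), Casp9 rose 1.48-fold (log2 fold change 0.57, SE 0.10, edgeR adjusted p = 0.00371) and Mlkl, the effector of necroptosis, rose 1.63-fold (log2 fold change 0.71, SE 0.14, edgeR adjusted p = 0.00603). Bcl2l1, which encodes BCL-XL, fell 1.29-fold, not called without WT replicate 1 or Bcl3-/- replicate 2. Of 31 Toll-like receptor, TNF and interleukin-1 pathway genes 8 were higher and 3 lower, with 3, 2, 8, 6, 2 and 3 higher and 3, 3, 4, 3, 2 and 3 lower without 1 library. Tlr2, a receptor of bacterial lipoproteins, rose from 6.74, 5.65 and 9.56 in WT against 11.1, 13.4 and 15.0 CPM (log2 fold change 0.85, SE 0.18, edgeR adjusted p = 0.00808). Tlr3, the receptor of double-stranded RNA, rose from 9.54, 8.20 and 13.8 in WT against 17.3, 20.7 and 25.5 CPM (log2 fold change 1.01, SE 0.19, edgeR adjusted p = 0.00444). Of 32 interleukins and receptors 6 were higher and 3 lower (4, 3, 9, 5, 6 and 4 higher and 2, 3, 4, 2, 2 and 3 lower without 1 library). Il11ra1, the receptor of interleukin 11, was at 36.8, 42.4 and 58.2 in WT and at 90.4, 81.6 and 80.7 CPM in those labelled Bcl3-/- (log2 fold change 0.88, SE 0.16, edgeR adjusted p = 0.00428), Il17rc rose 1.52-fold (log2 fold change 0.60, SE 0.11, edgeR adjusted p = 0.00371) and Lifr rose 1.42-fold (log2 fold change 0.51, SE 0.10, edgeR adjusted p = 0.00524). The cytokine Il7 fell 1.75-fold (log2 fold change -0.81, SE 0.14, edgeR adjusted p = 0.0029). Of 29 serpins and genes of clotting and fibrinolysis 7 were higher and 5 lower (6, 5, 7, 6, 5 and 5 higher and 3, 4, 5, 3, 3 and 4 lower without 1 library). Serpina3n rose from 0.905, 1.23 and 1.97 in WT against 4.32, 5.45 and 5.01 CPM (log2 fold change 1.81, SE 0.24, edgeR adjusted p = 0.000908), Serping1, the C1 inhibitor, rose 3.07-fold (log2 fold change 1.62, SE 0.30, edgeR adjusted p = 0.00412) and F13a1, a transglutaminase of clots and matrix, rose 4.55-fold (log2 fold change 2.19, SE 0.36, edgeR adjusted p = 0.00248). None of the 16 macrophage markers was called, as given above. Of 32 tubulin, kinesin and cilium genes 2 were higher and 4 lower (2, 1, 2, 1, 1 and 2 higher and 1, 1, 5, 2, 1 and 1 lower without 1 library), with Tuba4a at 47.0, 40.5 and 37.3 in WT and at 24.3, 26.0 and 28.8 CPM in those labelled Bcl3-/- (log2 fold change -0.66, SE 0.12, edgeR adjusted p = 0.00331).

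When genes were grouped by the stem of their symbol, 98 stems had at least 15 tested members, and those named here were chosen after their values were seen. The Adamts proteases of the matrix were higher for 10 of 17 and lower for 0 (0 at an unadjusted p under 0.05 and 0 by DESeq2), at a median of 0.49, with 5 retained. Adamts2, which trims procollagen, was at 45.5, 54.2 and 72.9 in WT and at 127, 138 and 135 CPM in those labelled Bcl3-/- (log2 fold change 1.21, SE 0.15, edgeR adjusted p = 0.000758). Adamts15, which cleaves versican, was at 0.362, 0.273 and 0.107 in WT and at 0.961, 1.02 and 0.922 CPM in those labelled Bcl3-/- (log2 fold change 2.02, SE 0.43, edgeR adjusted p = 0.00913). TNF receptors were lower for 5 of 18 and higher for 0 (2 at an unadjusted p under 0.05 and 0 by DESeq2), and all 5 falls were retained. Tnfrsf11b, the decoy receptor osteoprotegerin, was at 311, 199 and 166 in WT and at 87.8, 77.8 and 98.8 CPM in those labelled Bcl3-/- (log2 fold change -1.35, SE 0.27, edgeR adjusted p = 0.00687). Tnfrsf11a, the receptor RANK that the decoy competes with, was at 5.52, 6.12 and 5.70 in WT and at 3.16, 3.89 and 2.77 CPM in those labelled Bcl3-/- (log2 fold change -0.82, SE 0.16, edgeR adjusted p = 0.00648). Tnfrsf10b, a receptor for TRAIL, was at 45.9, 46.4 and 42.0 in WT and at 30.9, 28.0 and 30.8 CPM in those labelled Bcl3-/- (log2 fold change -0.58, SE 0.10, edgeR adjusted p = 0.00273), and Tnfrsf12a and Tnfrsf23 were 1.68- and 1.43-fold lower. The clustered protocadherins of the β group were higher for 11 of 20 and lower for 0 (0 at an unadjusted p under 0.05 and 0 by DESeq2), at a median of 0.65, and 3 rises were retained. They summed to 31.9, 31.4 and 40.5 CPM in WT libraries and to 55.4, 55.0 and 51.6 CPM in those labelled Bcl3-/-. These genes are near-identical neighbours, so that reads may be split between them and the rises are not independent. The neighbouring γ group was higher for 4 of 22, and 0 of 4 genes of the α group were called. A total of 15 stems had no call, among them Cox, Mrpl and Mrps, which include subunits of the respiratory chain and of the mitochondrial ribosome. These had 0 of 22, 0 of 50 and 0 of 29 genes called by edgeR, 0, 3 and 1 at an unadjusted p under 0.05, and 0, 3 and 1 called by DESeq2.

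On day 3 the comparison gave 780 higher genes (4.78% of those tested) and 913 lower genes (5.6%). Of the 1473 genes higher on day 1, 460 were also higher on day 3, which is 31.2% of the day 1 list and 59.0% of the day 3 list, and 20 were lower. Of the 1021 lower genes, 339 were also lower on day 3, which is 33.2% and 37.1% of the lists, and 3 were higher. The labels give both days the same culture codes, so the days may not be independent. Deviations from the group mean of libraries with the same code correlated between days at 0.33, 0.24 and 0.25 in WT and at -0.13, -0.017 and -0.16 in those labelled Bcl3-/-. The genotype effect itself differed between days in 183 genes (1.12%), of which 138 were higher and 19 lower on day 1. Among retained rises, Car3 was at a log2 fold change of 3.83 on day 1 and 5.18 on day 3, Egfl6 at 3.56 and 2.50, and Steap4 at 3.13 and 2.24. Lgr5 was at 2.96 and 1.06 and Lgr6 at -3.12 and -1.22, neither of which passed the test on day 3 (edgeR adjusted p = 0.107 and 0.14). Ptgs2 was at -1.87 and -1.82, Tnfrsf11b at -1.35 and -1.16 and Lepr at -1.39 and -1.32, with calls on both days. Nop2 was at -0.41 and -0.08 and Ddx21 at -0.51 and -0.17, with no call on day 3 for either gene (edgeR adjusted p = 0.527 and 0.183). The difference between the days did not pass the test for Lgr5, Lgr6, Nop2 or Ddx21 (edgeR adjusted p = 0.173, 0.227, 0.195 and 0.198). Nor did it for Car3, Egfl6 or Steap4 (edgeR adjusted p = 0.54, 0.522 and 0.425).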

How the data were processed

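The 6 libraries of the comparison were grouped by their titles. The deposited counts are whole reads per gene; the authors trimmed with Trim Galore, aligned to GRCm38 with TopHat2 and counted with HTSeq (versions not given in the sources used here). The 5 summary entries, 13.7 to 14.7% of reads per day 1 library, were left out. The authors ran Cufflinks for the deposited FPKM values, which served only as an alternative. GENCODE M21 gave gene names and positions (49326 of 49585 IDs matched).

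Genes kept by filterByExpr in edgeR 4.0.16 (R 4.3.3) were scaled by TMM, with factors from 0.951 to 1.05. They were tested in 1 quasi-likelihood fit of 4 groups and 12 libraries, with Benjamini-Hochberg adjustment over 16318 genes. The biological coefficient of variation was 13.5%. No day 1 pair was a copy, with a chi-square of at least 8.60 per gene. The replicates are separate preparations of calvariae. Fold changes are fitted values, and CPM values are comparable between libraries but not between genes.

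Alternatives were RLE and upper-quartile scaling, no filter or at least 1 CPM in at least 3 libraries, the 6 day 1 libraries alone, a replicate block, culture as a random effect in limma 3.58.1 (voom), DESeq2 1.42.0, limma on log2 FPKM of the tested genes with a pseudocount of 1 or 0.1 or, with 1, only where 3 libraries reached an FPKM of 1, stricter thresholds, and leaving out each library. The scripts were tested on simulated data, where 8 of 157 calls were false. Far fewer genes were changed there than were called in the data, so that share is no estimate for them.

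The comparison and the 55 gene lists were chosen with earlier results of these data known. Named genes are Bcl3; the 15 largest rises and falls among calls retained without any 1 day 1 library, with groups that do not overlap and a day 1 mean of 1 log2 CPM or more; the 10 that changed most in mean CPM each way; and up to 4 called members of each list with the smallest adjusted p, plus up to 2 that go against its majority. Predicted genes were counted and mostly not named, and some genes the rule selects and 1 list are not reported here by name. Promoters were read from a RefSeq table of GRCm38.p6.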

Additional observations from a re-analysis of the deposited data

Results flagged for a closer look

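Each gene here had a genotype effect on day 1 that differed from the effect on day 3 by edgeR's test of that difference; values are log2 fold changes of libraries labelled Bcl3-/- over WT. Groups of 3 libraries were not put to Dixon's test for a single sample.

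The difference was largest for Iigp1, an interferon-inducible GTPase, at 3.04 on day 1 and -0.10 on day 3, a difference of 3.13 (SE 0.63, edgeR adjusted p = 0.0394). Tlr3, the receptor of double-stranded RNA, was at 1.01 and -0.38, a difference of 1.38 (SE 0.26, edgeR adjusted p = 0.0335). Scd2 was at 0.66 and -0.38, a difference of 1.046 (SE 0.20, edgeR adjusted p = 0.0353), and was not called on day 3 (edgeR adjusted p = 0.108). Acsl3 was at 0.61 and -0.35 and was called on both days, lower on day 3 (edgeR adjusted p = 0.0375), with a difference of 0.96 (SE 0.14, edgeR adjusted p = 0.0206). Aldh1l2, a mitochondrial folate dehydrogenase, was at 0.67 and -0.40, a difference of 1.06 (SE 0.22, edgeR adjusted p = 0.0396), and was not called on day 3 (edgeR adjusted p = 0.119). Its day 1 call was lost without Bcl3-/- replicate 2. Aldh1l1 was at 1.96 and 0.35, a difference of 1.61 (SE 0.26, edgeR adjusted p = 0.0256).

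The guidance genes Sema3d and Epha5 rose more on day 1: Sema3d was at 1.17 and 0.53, a difference of 0.63 (SE 0.12, edgeR adjusted p = 0.0357), and Epha5 at 1.09 and 0.03, a difference of 1.06 (SE 0.20, edgeR adjusted p = 0.0335). Chst15 was at 0.94 and -0.00, a difference of 0.94 (SE 0.20, edgeR adjusted p = 0.0469). Falls on day 1 with a positive value on day 3 were those of Timp3, at -0.86 and 0.47 with a difference of -1.33 (SE 0.24, edgeR adjusted p = 0.0328), and Cyp26b1, at -0.91 and 0.21 with a difference of -1.13 (SE 0.19, edgeR adjusted p = 0.0281). Neither was called on day 3.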

How the results depend on the processing

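Of 2494 calls (1473 higher, 1021 lower), 1008 passed an adjusted p under 0.01 (687 higher, 321 lower) and 722 also a log2 fold change over 1 (557 higher, 165 lower). Leaving out each of the 12 libraries in turn gave 1281 to 2916 calls, 734 to 1738 higher and 453 to 1249 lower. WT replicates 1 and 2 mattered most, and without WT replicate 3 calls rose to 2916. At an adjusted p under 0.01 the range was 184 (121 higher, 63 lower, without WT replicate 2) to 1446 (950 and 496, without WT replicate 3), with 265 without WT replicate 1, 464, 322 and 376 without Bcl3-/- replicates 1, 2 and 3, 1578 with no count filter, 1956 by DESeq2 and 655 on filtered FPKM. Changes over 1 ranged from 353 to 696 higher and from 90 to 233 lower, and were 237 and 53 on log2(FPKM + 1) and 250 and 58 when that was filtered. Day 3 libraries, which enter the spread, gave 2294 to 2882. Other normalizations, filters, tests and units, listed in the methods, gave 2061 to 3034 calls at 0.05, within 1.5 times in both directions, and moved the median of all genes by 0.032 or less on the log2 scale.

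Deviations of same-numbered day 1 libraries from their group means correlated at -0.06, -0.05 and 0.04, so the title numbers did not pair the libraries by this measure. Sex-linked genes did follow the numbers. Ddx3y was at 2.13, 66.62 and 18.85 in WT and at 1.52, 78.75 and 35.97 CPM in those labelled Bcl3-/-. The Y-linked Eif2s3y, Kdm5d and Uty were also lowest in replicate 1 and highest in replicate 2 of both groups, and Xist ran in the reverse order. The mix of sexes in each culture was not tested. With the replicate number as a block, 2465 genes were called (1518 higher, 947 lower). With the level of 4 Y-linked genes as a covariate, an alternative chosen after seeing the data, 2291 were called (1388 higher, 903 lower).

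Bcl3 on day 1, at -0.0886 to 0.069 with 1 library left out, changed sign without WT replicate 2, to 0.069 (edgeR adjusted p = 0.799), and without Bcl3-/- replicate 1, to 0.0119 (edgeR adjusted p = 0.973), and passed the test in no setting. Of the 227 other genes that the naming rule selected, none reversed. Between 28 and 41 lost their call without WT replicate 1 or 2 or any 1 library labelled Bcl3-/-, and 5 without WT replicate 3. On FPKM 19 to 26 lost it, with no count filter 15 and with DESeq2 1. The largest changes were named only if retained in the 6 day 1 leave-outs, so these genes could not lose their call or reverse there. List members were picked for small adjusted p. Over all 2494 calls, 1051 were retained. Counts of 3 libraries a group limit what small changes can be seen: in simulated data the day 1 test recovered 50% of genes changed by 0.7 and 92% of those changed by 2 on the log2 scale. Only 50 of 16318 genes were changed at each size, and counts were drawn independently, without the shift of WT replicate 3 or shared cultures. In the data 15.3% of genes were called, so these rates cannot be carried over to them.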

Other observations

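Immunoglobulin genes were read at low but measurable levels and were not called. Of 55 tested variable-region genes 0 were called by edgeR, 4 were higher at an unadjusted p under 0.05 and 1 was called by DESeq2, with a median log2 fold change of 1.10. They summed to 33.2, 37.2 and 26.6 CPM in WT libraries and to 19.8, 86.4 and 104 CPM in those labelled Bcl3-/-. Of 8 constant-region and joining genes 0 were called by edgeR, with 0 at an unadjusted p under 0.05 and 0 by DESeq2. These summed to 157, 158 and 120.3 CPM in WT and to 82.6, 337 and 442 CPM in the other group. Bcl3-/- replicates 2 and 3 were the highest libraries in both sums and Bcl3-/- replicate 1 the lowest, so the groups overlapped.

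Ibsp, the bone sialoprotein of mineralizing osteoblasts, was at 0.678 and 1.12 CPM in WT replicates 1 and 2 and at 18.9 CPM in WT replicate 3. It was at 2.71, 5.42 and 5.24 CPM in the libraries labelled Bcl3-/-, so the groups overlapped. WT replicate 3 was also the WT library nearest to those labelled Bcl3-/- on the first principal component. The share of tested genes that were called ran from 12.2% on chromosome 17 to 19.3% on chromosome 18. It was 14.4% on chromosome 7, which carries Bcl3.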
